A study of Drosophila melanogaster with 24 samples.

Results

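The genes described here encode subunits of the oxidative phosphorylation (OXPHOS) complexes from the nuclear genome. They were taken from the 24-library expression table as every gene whose symbol starts with ND-, COX, UQCR- or ATPsyn and whose mean normalized count over the 24 libraries was at least 10. Of the 12126 genes in the table, 62 carried such a symbol and 59 passed the minimum, 34 for complex I, 6 for complex III, 8 for complex IV and 11 for complex V. The lowest gene inside the minimum was COX5BL, with a mean of 28.1, and the genes outside it were UQCR-11L, at 8.18, ATPsynepsilonL, at 5.47, and COX6AL, at 4.02. Those 3 genes were left out of all tests.

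Oxidative phosphorylation takes place at the inner mitochondrial membrane. Complex I (NADH dehydrogenase, ND- genes) and complex II pass electrons to ubiquinone, complex III (ubiquinol-cytochrome c reductase, UQCR- genes) passes them to cytochrome c, and complex IV (cytochrome c oxidase, COX genes) reduces oxygen. Complexes I, III and IV pump protons, and complex V (ATP synthase, ATPsyn genes) uses the gradient to make ATP. Most subunits are encoded in the nucleus and imported, while a small set is encoded by the mitochondrial genome. Insect flight muscle, which fills most of the thorax, is among the tissues richest in these complexes.

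RNA of heads plus thoraces from once-mated females was sequenced, with 25 flies per library and 3 libraries for each of 8 groups. The groups were wDah (white Dahomey) controls and Gcn2 null mutants, in which the Gcn2 open reading frame is replaced by a white-hs marker gene in the backcrossed wDah background, so that a single mutant allele stands for the genotype. GCN2 is a kinase that is activated by uncharged tRNA when amino acids are short. Each genotype was kept for 3 days on Yaa, a synthetic diet whose amino acid proportions follow yeast, or on the same diet without arginine (-R), without methionine (-M) or without all amino acids (-All). Newly emerged adults were left to mate before the females were sorted, and no age in days is given in the sources used here.

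The libraries summed to 20873591 to 27513490 normalized counts, that is, estimated reads that the authors divided by a size factor per library. Gcn2 itself averaged 655 normalized counts in the 12 wDah libraries (597 to 701) and 141 in the 12 Gcn2 libraries (106 to 185), without overlap. All 14 flight muscle, 9 photoreceptor and 8 neuron markers were detected in every library, as the labelled tissue requires, no accessory gland marker was listed in the table, and 2 of 13 testis markers were, at sums of 10.4 to 67.2 normalized counts. The median of the eggshell and germ line markers lay over 2 on the log2 scale above the other libraries of the group in 4 libraries, Gcn2 Yaa replicate 2, Gcn2 -R replicate 1, wDah -M replicate 1 and wDah -All replicate 1, which are called ovary-marked here. Under that limit, the sum of these markers was still 1366 normalized counts in wDah -All replicate 3, against 356 in replicate 2. That was below the 2882 of the ovary-marked wDah -All replicate 1 but above the 1113 of the ovary-marked wDah -M replicate 1. The sum was 1265 in Gcn2 -M replicate 2, against 56.6 and 33.0 in replicates 1 and 3. It was 532 in Gcn2 -All replicate 1, against 75.0 and 109 in replicates 2 and 3. Fits without the ovary-marked libraries still hold these libraries under the limit. Total counts of the 59 genes called that include an ovary-marked library are also given without it. Samples are pieces of tissue with many cell types, so fewer cells of a type and less RNA per cell cannot be told apart.

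Per transcript length most of the subunit genes lay within a narrow range. FPKM, the authors' value per transcript length and library size, averaged 294 (ND-B18) to 4902 (ND-MLRQ) for 58 of the 59 genes, a 16.7-fold range. Only COX5BL, a close relative of COX5B, lay far below the rest, at 2.60 FPKM against 1289 FPKM for COX5B. Median FPKM was 430 for complex I, 1330 for complex III, 1613 for complex IV and 1478 for complex V. The highest of complex V were ATPsynbeta, the catalytic subunit, at 3696 FPKM and ATPsynC, the subunit of the proton-driven membrane ring, at 3546 FPKM. ND-MLRQ was grouped with complex I by its symbol, although its mammalian counterpart has been reassigned to complex IV. COX7A, at 323 FPKM, was the lowest of complex IV apart from COX5BL.

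**Figure D1:**
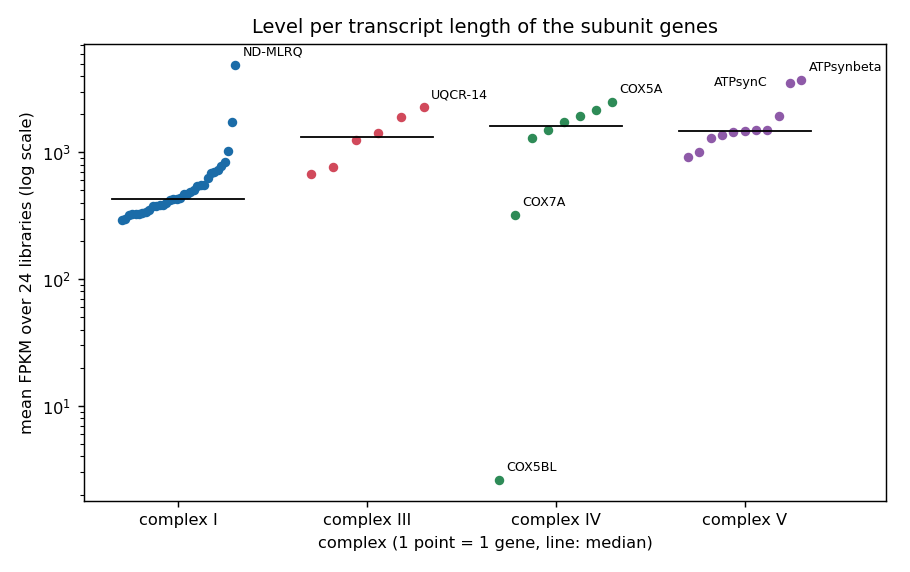
Mean FPKM over 24 libraries on a log axis for the 59 genes, 1 point per gene, with the median of each complex as a line. Complex I genes cluster near a median of 430 FPKM, below the medians of the other complexes, and COX5BL stands alone at 2.60 FPKM.

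In the BDGP6.54 annotation the 59 genes were spread over the arms 2L (13), 2R (9), 3L (12), 3R (11), 4 (2) and X (12). Exons of 31 of the 59 overlapped an exon of another gene, 7 of them on the same strand. Among the genes given in full below, ATPsynC (3R, 31216145 to 31219630, minus strand) overlapped mir-4949 and COX6B (X, 19740537 to 19744335, minus strand) overlapped CG18809 on the same strand. UQCR-C2, COX5A, ND-51, UQCR-14, ATPsynbeta, ATPsynO, ND-B8 and COX5BL overlapped a neighbour on the opposite strand. Whether the reads kept their strand is not given in the sources used here, so a share of the counts of these genes cannot be assigned with certainty.

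Across the 8 groups the medians of the complexes had the same sign in most groups. Relative to the mean of wDah on Yaa, the median of the 59 genes on the log2 scale lay between 0.10 and 0.14 in the wDah -R libraries, between 0.11 and 0.31 in wDah -M and between 0.19 and 0.28 in wDah -All. In the mutants it lay between -0.32 and -0.04 on Yaa, between -0.25 and -0.16 on -R, between -0.08 and 0.12 on -M and between 0.11 and 0.32 on -All. The mutants on Yaa and on -R were below every wDah library, and the mutants on -All overlapped wDah on -All. By complex, the group means ran from -0.20 in Gcn2 -R to 0.21 in wDah -M for complex I, and from -0.23 in Gcn2 Yaa to 0.34 in Gcn2 -All for complex V.

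**Figure D2:**
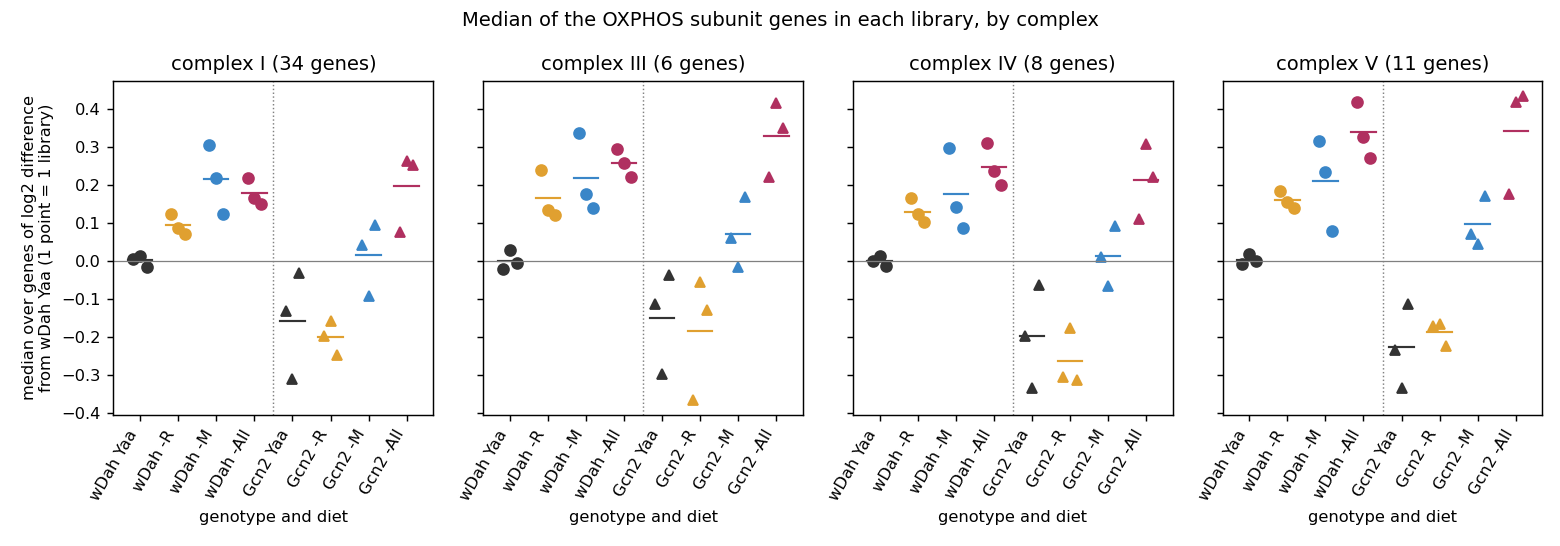
Median log2 difference from the wDah Yaa mean over the genes of each complex, 1 point per library, circles for wDah and triangles for Gcn2, with group means as lines. In all 4 panels wDah libraries on deprived diets lie above 0 and Gcn2 libraries on Yaa and -R below 0, on the authors' scaling; with equal library totals the wDah -R and wDah -All medians over the 59 genes turn slightly negative (-0.03 and -0.06).

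These positions depend on how libraries are scaled. As a share of all normalized counts in the library, the 59 genes took 3.53 to 3.59% in wDah Yaa, 3.468 to 3.603% in wDah -R, 3.64 to 4.00% in wDah -M and 3.35 to 3.63% in wDah -All. In the mutants the share was 3.04 to 3.33% on Yaa, 2.88 to 3.10% on -R, 3.23 to 3.46% on -M and 3.24 to 3.57% on -All. The share in wDah therefore overlapped that on Yaa in -R and -All and lay above it in -M. Fat body transcripts, yolk and larval serum proteins among them, summed to 389980 to 463817 normalized counts in wDah Yaa and to 3007040 to 3405490 in wDah -All, and their part in these shares was not tested.

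**Figure D3:**
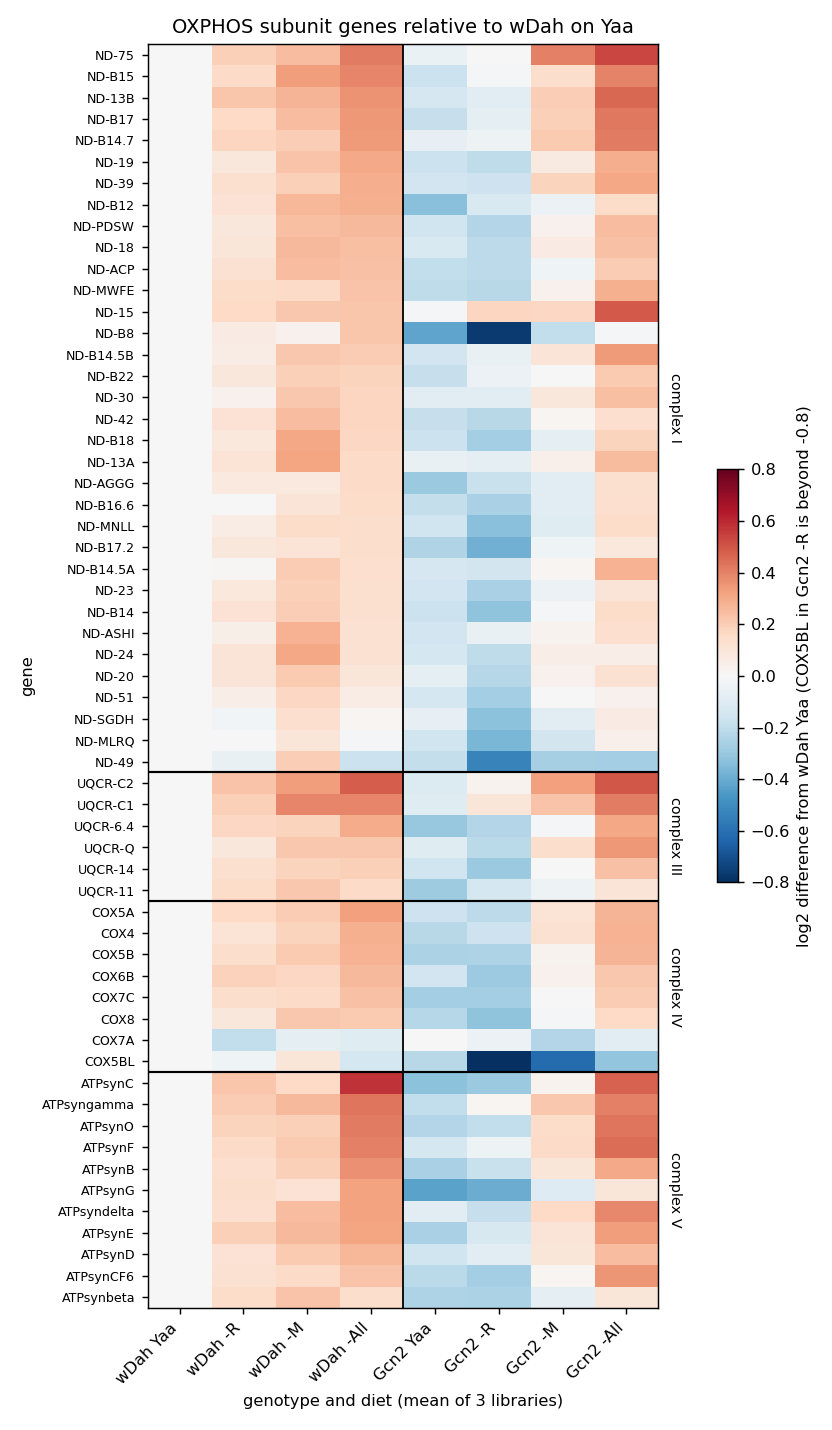
Mean log2 difference from wDah on Yaa for each of the 59 genes (rows, by complex) in the 8 groups (columns, 3 libraries each), on the authors' scaling. Most rows are red in the wDah deprivation columns (on equal library totals the wDah -R and -All medians are -0.03 and -0.06), blue in Gcn2 Yaa and Gcn2 -R and red again in Gcn2 -All; COX7A, COX5BL and ND-49 depart from this, and ND-15, UQCR-C1, UQCR-C2 and ATPsyngamma lie above wDah Yaa in Gcn2 -R.

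The first question was what arginine deprivation does in control flies. In wDah on -R, 31 of the 59 genes rose and 1, COX7A, fell (limma, Benjamini-Hochberg adjusted p under 0.05 over 10994 genes tested), with a median log2 change of 0.11, but with every library rescaled to the same total of normalized counts 0 rose and 8 fell, at a median of -0.03. Among all genes tested 13.8% were called higher and 8.91% lower, with a median of -0.01 (-0.16 after the rescaling). After the rescaling 8% of all genes were called higher and 35.9% lower. By complex, 13 of 34 genes rose in complex I, 5 of 6 in complex III, 4 of 8 in complex IV and 9 of 11 in complex V. The 3 libraries of each diet did not overlap for 45 of the 59 genes, against 41% of all genes.

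UQCR-C2, a core protein of complex III, had the largest rise on -R. Its normalized counts were 21278, 22551 and 21702 on Yaa and 26922, 24906 and 24913 on -R. All -R libraries were above all Yaa libraries, a log2 change of 0.23 (SE 0.043, adjusted p = 0.00663). COX7A, a small nuclear-encoded subunit of complex IV, was at 3393, 3350 and 3325 on Yaa and 3001, 2857 and 2921 on -R. It was lower in all 3 libraries, by a log2 change of -0.20 (SE 0.032, adjusted p = 0.00295). ATPsynC rose by 0.22 (SE 0.045, adjusted p = 0.0097), and ND-75, which carries iron-sulfur clusters of the NADH-oxidising arm of complex I, rose by 0.19 (SE 0.031, adjusted p = 0.00268). Of the 7 complex I core genes ND-75, ND-24 and ND-20 passed, while ND-49, ND-51, ND-30 and ND-23 had log2 changes of -0.06, 0.05, 0.04 and 0.09 that did not. The number called was 18 without wDah Yaa replicate 1, 15 without wDah Yaa replicate 3 and 20 without wDah -R replicate 1. When the 24 libraries were fitted in one model it was 0.

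Methionine deprivation in control flies was examined next. In wDah on -M, 39 of the 59 genes rose and 0 fell, with a median log2 change of 0.21, and with equal library totals 17 rose and 1 fell, at a median of 0.11. Among all genes 15.1% were called higher and 10.4% lower (9.25 and 20.9% with equal library totals). Complex I had 27 of 34 genes higher, complex III 3 of 6, complex IV 3 of 8 and complex V 6 of 11. Libraries did not overlap for 52 of the 59 genes, against 44.1% of all genes. All 7 complex I core genes rose, by 0.17 (ND-51, the flavin-binding subunit) to 0.31 (ND-24, its partner in the NADH-oxidising arm). With equal library totals only ND-20, ND-24, ND-30 and ND-75 passed, and without the ovary-marked library all but ND-51 did.

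UQCR-C1, the other core protein of complex III, had the largest rise on -M. It was at 19572, 20296 and 20165 on Yaa and at 27395, 27204 and 24098 on -M, a log2 change of 0.39 (SE 0.055, adjusted p = 0.00195). The third -M library was the lowest here, and its median over the 59 genes was 0.11 relative to Yaa, against 0.31 and 0.21 in replicates 1 and 2. ND-24 was at 9612, 9669 and 9502 on Yaa and 12534, 11969 and 11254 on -M, again without overlap. The count called was 20, 19 and 16 without wDah Yaa replicate 1, 2 or 3 and 25 without wDah -M replicate 2. Without the ovary-marked wDah -M replicate 1 it was 31, all higher, against 13.3% of all genes higher and 9.01% lower.

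Removal of all amino acids was the third diet given to controls. In wDah on -All, 49 of the 59 genes rose and 1, ND-49, fell, with a median log2 change of 0.23, but with equal library totals 5 rose and 18 fell, at a median of -0.06. The whole table shifted too, with 19.6% of genes called higher and 15.7% lower and a median over all genes of -0.02, or -0.30 after the rescaling. After the rescaling 8.61% of all genes were called higher and 53.6% lower. The median of the 59 genes was above that of all genes on either scale. All 6 genes of complex III, 10 of 11 of complex V, 6 of 8 of complex IV and 27 of 34 of complex I rose. The median log2 change was 0.32 in complex V, 0.26 in complex III, 0.25 in complex IV and 0.17 in complex I.

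ATPsynC had the largest rise on -All. Its normalized counts were 73082, 72763 and 74813 on Yaa and 114404, 111452 and 103353 on -All, 1.49-fold higher (log2 0.58, SE 0.054, adjusted p = 0.000193). The groups were far apart for this gene, and it rose on both scales. UQCR-C2 rose by 0.48 (SE 0.039, adjusted p = 9.46e-05) and ND-75 by 0.42 (SE 0.034). The other core subunits of complex I changed less, with rises of 0.12 (ND-24), 0.13 (ND-23) and 0.17 (ND-30) and changes of 0.06 (ND-51) and 0.10 (ND-20) that did not pass. With equal library totals ND-24, ND-23 and ND-30 turned negative (-0.16, -0.16 and -0.11), and ND-23 did not pass without the ovary-marked library (adjusted p = 0.0576). ND-49, a core subunit near the ubiquinone site, was at 23624, 22355 and 23333 on Yaa and 20854, 20345 and 20186 on -All. It fell by 0.17 on the log2 scale (SE 0.040, adjusted p = 0.0118), although it had risen by 0.19 on -M. That rise did not pass with equal library totals. The fall did not pass without wDah Yaa replicate 1 or 3 (adjusted p = 0.0577 and 0.0517). Without wDah -All replicate 1, an ovary-marked library, 42 genes rose and 1 fell, against 18.9 and 15.1% of all genes.

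The 3 diets share the wDah Yaa libraries, so their values are set side by side. UQCR-C2 had log2 changes of 0.23 on -R, 0.33 on -M and 0.48 on -All. Those of ND-75 in the same order were 0.19, 0.25 and 0.42. ATPsynC had changes of 0.22, 0.16 and 0.58, of which the one on -M did not pass (adjusted p = 0.161). COX7A was at -0.20, -0.07 and -0.10, and only the first passed. Marker sums of other tissues moved as well. Gut digestive enzymes summed to 153320 to 168405 normalized counts on Yaa, 251539 to 267459 on -R, 228831 to 270581 on -M and 319030 to 345483 on -All, with 8, 6 and 8 of the 11 higher on the deprived diets in that order. The 8 neuron markers summed to 41419 to 43474 on Yaa, 39625 to 39717 on -R, 32343 to 36118 on -M and 32681 to 36233 on -All. Of these markers 5, 6 and 7 fell on the 3 diets in that order. Of the 9 photoreceptor markers 2 rose on -R, 4 fell on -M and 3 fell on -All. Flight muscle markers summed to 645329 to 667447 on Yaa and 642236 to 699283 on -All. Of these 14 markers 1 rose and 2 fell on -R, 2 rose and 1 fell on -M, and 4 rose and 3 fell on -All. Among all genes 13.8, 15.1 and 19.6% rose and 8.91, 10.4 and 15.7% fell on these diets. Without the ovary-marked libraries 6 neuron markers fell on each of -M and -All, and 2 and 3 photoreceptor markers did. The part of these tissues in the changes of the subunit genes was not tested.

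**Figure D4:**
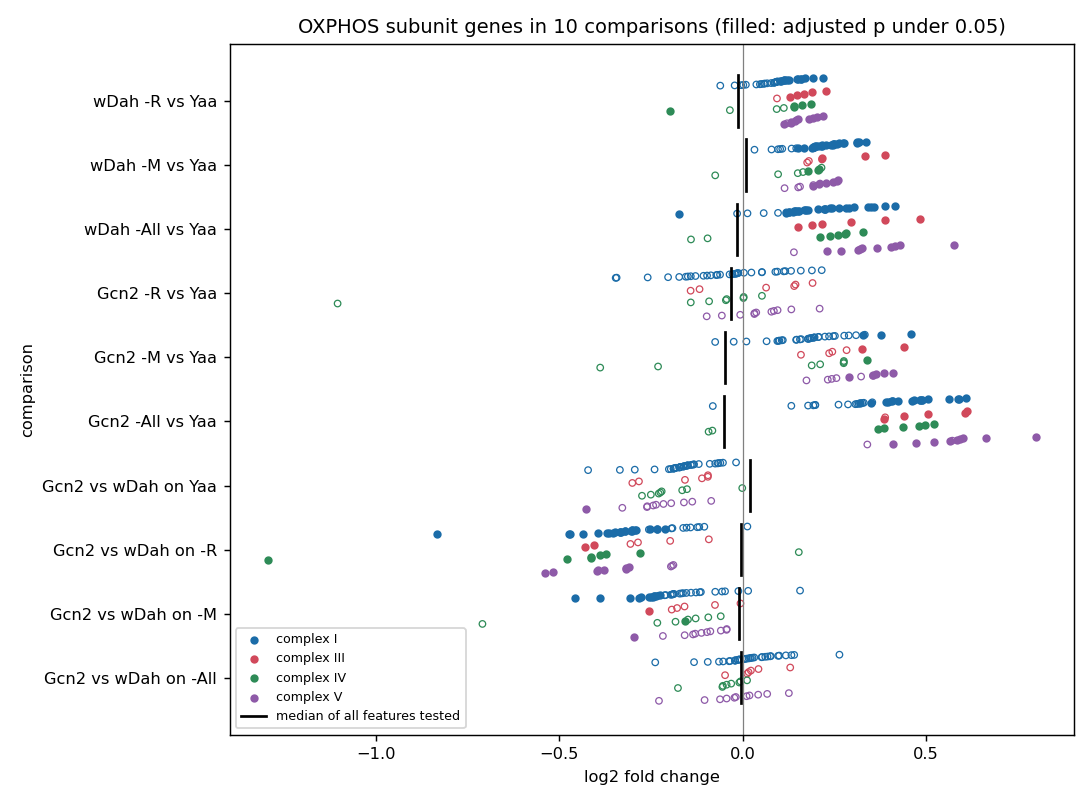
Log2 fold change of each of the 59 genes in 10 comparisons, coloured by complex, filled where the adjusted p was under 0.05, with the median of all genes tested as a black bar. Most points lie to the right of the bar in all wDah deprivations and in Gcn2 on -M and -All, and to the left for Gcn2 against wDah on Yaa, -R and -M; on equal library totals the median of the 59 genes is -0.03 for wDah -R and -0.06 for wDah -All.

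In Gcn2 mutants, arginine deprivation gave no call in these genes. On -R, 0 of the 59 rose and 0 fell by limma, with a median log2 change of -0.01, although 17.1% of all genes were called higher and 4.54% lower. Only 3 of the 59 had an unadjusted p under 0.05, and libraries of the diets did not overlap for 8, against 48% of all genes. Log2 changes ranged from -1.11 (COX5BL) to 0.22 (ND-B12), and the next lowest were ND-B8 and ND-49. The spread was large, with a median SE of 0.11 against 0.034 for the same diet in wDah. Gcn2 Yaa replicate 2 and Gcn2 -R replicate 1 are ovary-marked, and without both 13 genes fell and 0 rose, 11 of them in complex I, led by COX5BL (-1.06), ND-49 (-0.41), ND-B8 (-0.39) and ND-SGDH (-0.34). In that fit 24.1% of all genes were called lower and 32.3% higher, so the fall of 13 of the 59 was near the share of all genes. Without Gcn2 Yaa replicate 2 alone, 2 genes, ND-49 and ND-SGDH, fell. On this diet 6 of 11 gut enzyme markers and 2 of 14 flight muscle markers fell and 2 of 6 fat body markers rose; without the ovary-marked libraries 9, 11 and 3 did, and 7 of 8 neuron and 9 of 9 photoreceptor markers fell. Their part in these values was not tested.

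ATPsynC was at 54969, 58326 and 62696 on Yaa and 59574, 59844 and 60280 on -R, with every -R library inside the range on Yaa. ND-49 was at 22293, 17373 and 21490 on Yaa and 15047, 16503 and 16393 on -R, all 3 below the Yaa libraries, with a log2 change of -0.34 (SE 0.12) and an adjusted p of 0.0943. UQCR-C1 was at 19020, 17676 and 19566 on Yaa and 23806, 20090 and 20446 on -R, a log2 change of 0.19 (SE 0.11, adjusted p = 0.226).

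Methionine deprivation raised 11 of the 59 genes in the mutants and lowered 0, against 8.53% of all genes called higher and 2.49% lower. The median log2 change was 0.22, close to the 0.21 of wDah, and 55 of the 59 changes were positive. With equal library totals 3 rose and 1 fell, at a median of 0.06, where 5.93% of all genes were called higher and 9.98% lower. The genes called were ND-75, ND-39 and ND-B17 in complex I, UQCR-C1 and UQCR-C2 in complex III, COX4 in complex IV and ATPsynB, ATPsynE, ATPsynF, ATPsyngamma and ATPsynO in complex V. ND-75 had the largest rise, from 16081, 14009 and 15528 on Yaa to 20784, 19842 and 22044 on -M (log2 0.46, SE 0.076, adjusted p = 0.0108). All -M libraries were above all Yaa libraries. In both genotypes 9 genes were called higher on -M, 9 of the 11 in Gcn2 and 9 of the 39 in wDah. The count was 2 without Gcn2 Yaa replicate 1, 6 without Gcn2 Yaa replicate 3, 0 without Gcn2 -M replicate 1, 2 without Gcn2 -M replicate 2 and 0 without Gcn2 -M replicate 3. Without Gcn2 Yaa replicate 2, the ovary-marked library, 15 rose and 1 fell, against 13.7 and 9.16% of all genes. Of the fat body markers 5 of 6 rose (median 2.15) and of the gut enzymes 8 of 11 (median 0.89), and their part in the changes was not tested.

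In mutants on -All most of the subunit genes were called. Of the 59 genes, 37 rose and 0 fell, against 10.6% of all genes called higher and 3.48% lower, with a median log2 change of 0.41. With equal library totals 13 rose and 2 fell, at a median of 0.09, where 6.6% of all genes were called higher and 38.8% lower. Complex V had 9 of 11 genes higher, complex III 5 of 6, complex IV 6 of 8 and complex I 17 of 34, with medians of 0.57, 0.47, 0.41 and 0.37. ATPsynC rose again by the most, from 54969, 58326 and 62696 to 94383, 103645 and 108541, 1.74-fold (log2 0.80, SE 0.091, adjusted p = 0.00132). The lowest -All library was above the highest Yaa library by a wide margin. ATPsynO, which joins the catalytic head to the peripheral stalk, rose by 0.66 (SE 0.097), UQCR-C2 by 0.61 (SE 0.085) and ND-75 by 0.59 (SE 0.087). Of the 7 complex I core genes only ND-75 passed, and ND-49 had a log2 change of -0.08. In both genotypes 36 genes were called higher on -All, 36 of the 37 in Gcn2 and 36 of the 49 in wDah. The count was 17 without Gcn2 Yaa replicate 1, 17 without Gcn2 -All replicate 2 and 12 without Gcn2 -All replicate 3, and 38 without the ovary-marked library. In that last fit 13.7% of all genes were called higher and 8.84% lower. All 6 fat body markers (median log2 change 3.34) and 7 of the 11 gut enzymes (median 1.25) rose on this diet, and 1 of 14 flight muscle markers did. The fat body and gut counts on -M and -All were the same without the ovary-marked library. What part these tissues had in the rise was not tested.

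**Figure D5:**
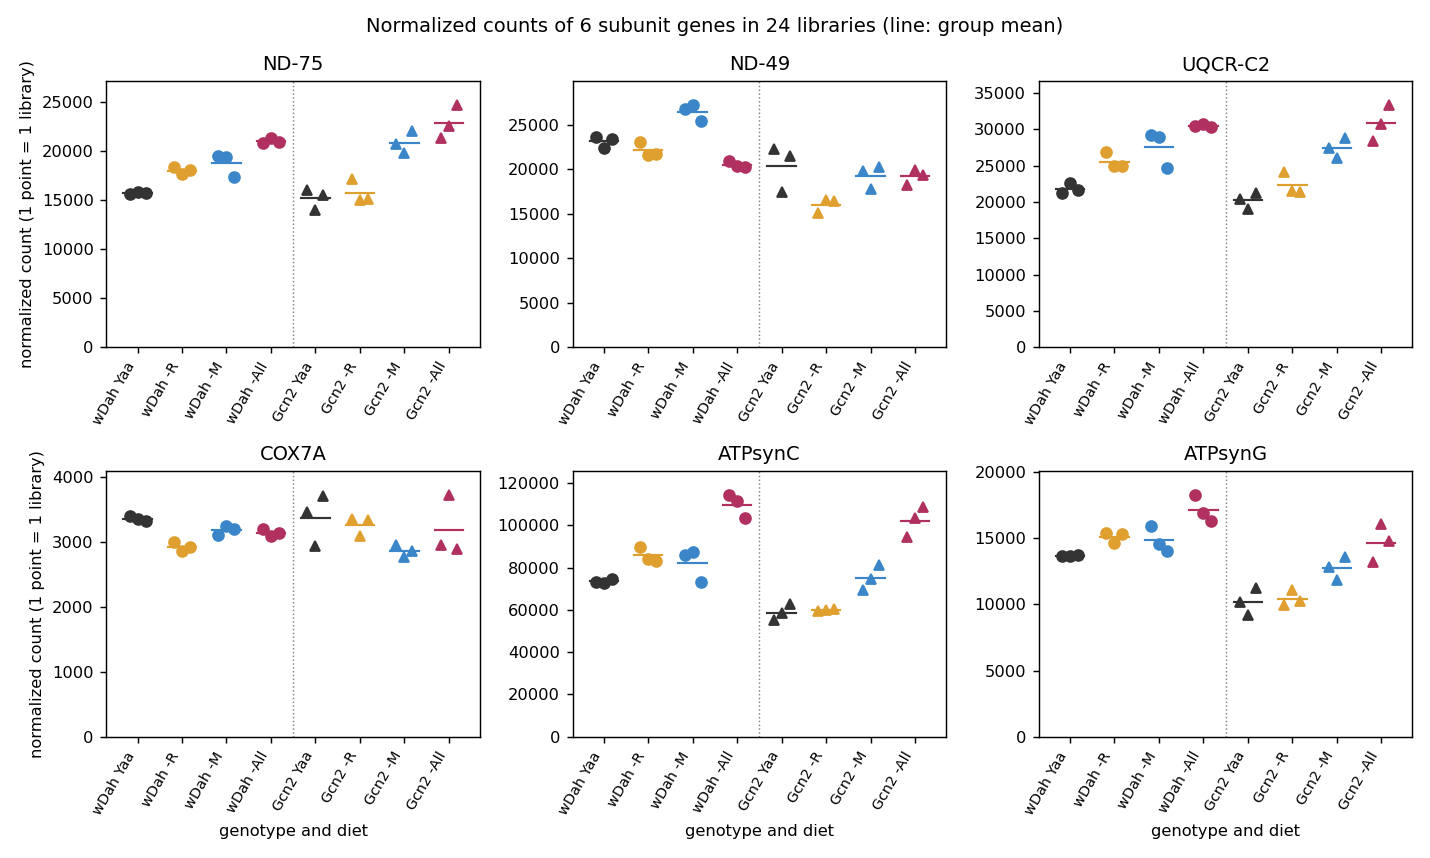
Normalized counts of ND-75, ND-49, UQCR-C2, COX7A, ATPsynC and ATPsynG, 1 point per library with the group mean as a line, circles for wDah and triangles for Gcn2. ATPsynC reaches 103353 to 114404 in wDah -All and 94383 to 108541 in Gcn2 -All, ND-49 is lowest in Gcn2 -R (15047 to 16503), and COX7A stays between 2766 and 3724 throughout.

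The mutants were then compared with controls on each diet. On Yaa all 59 log2 differences were negative, with a median of -0.17, but only ATPsynG, a membrane subunit of complex V, passed, so that 0 genes were higher and 1 lower, against 1.42% and 1.33% of all genes. At an unadjusted p under 0.05 there were 24 of 59. ATPsynG was at 13655, 13639 and 13757 in wDah and 10163, 9216 and 11267 in Gcn2, a log2 difference of -0.43 (SE 0.078, adjusted p = 0.0447). The 2 groups did not overlap for this gene or for 34 of the 59 in all, against 30.5% of all genes. The ovary-marked Gcn2 Yaa replicate 2 was the lowest mutant library, with a median over the 59 genes of -0.32 from wDah Yaa against -0.16 and -0.04. Without it the median difference was -0.09, 52 of 59 were negative and 12 genes were lower, 5 of them in complex V, with ATPsynG at -0.35 and ATPsynC at -0.33. In that fit 5.58% of all genes were lower and 6.09% higher. The count was 0 without any 1 of the 3 wDah Yaa libraries or without Gcn2 Yaa replicate 1.

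On -R the genotypes differed in most of the subunit genes. There 41 of the 59 genes were lower in the mutants and 0 higher, with a median log2 difference of -0.31, against 18.1% of all genes lower and 27.4% higher. Complex I had 24 of 34 genes lower, complex III 2 of 6, complex IV 7 of 8 and complex V 8 of 11. The libraries did not overlap for 54 of the 59, against 64.8% of all genes. With equal library totals 24 were lower and 1 higher, at a median of -0.21, against 13.6 and 31.2% of all genes. Without Gcn2 -R replicate 1 there were 51 lower and 0 higher, against 28.7 and 33% of all genes. Without wDah -R replicate 1 there were 20.

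COX5BL had the largest fall at a very low level, with 43.3, 35.8 and 22.0 normalized counts in wDah -R and 8.66, 18.7 and 12.3 in Gcn2 -R. Its log2 difference of -1.29 (SE 0.397, adjusted p = 0.038) did not pass without wDah -R replicate 1 or 2 or Gcn2 -R replicate 3 (adjusted p = 0.132, 0.118 and 0.0788). ND-B8, an accessory subunit of complex I chosen here after its values were seen, was at 2448, 2169 and 2403 in wDah and 1214, 1446 and 1279 in the mutants, a log2 difference of -0.84 (SE 0.094, adjusted p = 0.000826). ATPsynC was at 89731, 84151 and 83290 in wDah against 59574, 59844 and 60280, a difference of -0.52 (SE 0.073, adjusted p = 0.00208). In all 3 genes the genotypes did not overlap. COX6B (-0.48), ND-49 (-0.47) and UQCR-14 (-0.43) were also lower. COX7A, at 0.15 (SE 0.067, adjusted p = 0.104), and ND-15, at 0.01, were the only positive differences among the 59.

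On -M the mutants were lower in 15 of the 59 genes and higher in 0, against 10.8% and 12.1% of all genes, with a median log2 difference of -0.17. Of these, 12 were in complex I, including ND-49, ND-24 and ND-23, and 1 each in the other complexes, UQCR-11, COX7A and ATPsynbeta. ND-49 was at 26741, 27175 and 25411 in wDah and 19813, 17724 and 20279 in Gcn2, a log2 difference of -0.46 (SE 0.064, adjusted p = 0.00172). It passed in every alternative fit of this comparison. On both -R and -M 11 genes were lower in the mutants, 11 of the 15 on -M and 11 of the 41 on -R. The count was 5 without wDah -M replicate 1 (ovary-marked), 4 without wDah -M replicate 2, 4 without Gcn2 -M replicate 1 and 3 without Gcn2 -M replicate 2, and 33 with equal library totals. In the fit without the ovary-marked library 8.41% of all genes were lower and 10% higher, so the 5 of 59 were near the share of all genes. On -All 0 of the 59 were higher and 0 lower by limma, against 0.564% and 0.509% of all genes, with 3 at an unadjusted p under 0.05. Without wDah -All replicate 1, the ovary-marked library, 0 were called and the median was 0.03. The median difference over all libraries was 0.01, and single genes ranged from -0.24 (ND-B8) to 0.26 (ND-15).

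Transcripts of flight muscle and of other tissues also differed between the genotypes. The 14 flight muscle markers, with none at 0, summed to 645329 to 667447 normalized counts in wDah Yaa and 484725 to 593481 in Gcn2 Yaa, and to 635013 to 671801 in wDah -R and 358447 to 460637 in Gcn2 -R. On -M the sums were 619515 to 647557 in wDah and 540414 to 609812 in Gcn2, and on -All 642236 to 699283 and 611827 to 645199. Of the 14 markers, 12 were lower in the mutants on -R with a median log2 difference of -0.64, 9 were lower and 1 higher on -M, and 0 were called on Yaa or -All. In all genes tested 18.1% were lower on -R and 10.8% on -M. Without the ovary-marked libraries 14 were lower on -R (median -0.50), 6 were lower and 1 higher on -M, 3 were lower on Yaa and 0 were called on -All. The ratio of the summed subunit genes to the summed muscle markers was 1.27 to 1.40 in wDah -R and 1.503, 1.517 and 1.902 in Gcn2 -R, the last in the ovary-marked replicate 1. Photoreceptor sums were 407048 to 434058 in wDah -R against 253392 to 283927 in Gcn2 -R, with 9 of 9 markers lower, and gut enzyme sums were 251539 to 267459 against 69067 to 99048, with 10 of 11 lower. Neuron sums were 39625 to 39717 in wDah -R, and 10416 in Gcn2 -R replicate 1 against 27463 and 29299 in the other two. Of the 8 neuron markers 1 was lower, and 7 were without the ovary-marked library. Of 6 fat body markers 4 were lower in the mutants on -R (median -0.79) and 4 higher on -M (median 1.54). These counts held without the ovary-marked libraries. On -M 3 gut enzymes were higher and 2 lower, and 2 photoreceptor markers and 1 neuron marker were higher, against 12.1% of all genes higher and 10.8% lower. Their part in the lower subunit transcripts was not tested.

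Whether the diet response differed between genotypes was tested as an interaction. For -R, 0 of the 59 passed in limma, where 21.5% of all genes did, and 8 had an unadjusted p under 0.05. The median of the interaction was -0.14, with 49 of 59 negative, a negative value being a lower change from Yaa to -R in the mutants than in wDah. Without the ovary-marked libraries 27 genes passed and all were negative, 20 in complex I, 2 in complex III, 2 in complex IV and 3 in complex V, with ND-B8 (-0.45), COX6B (-0.40), ND-20 (-0.36) and ND-49 (-0.35) the lowest. In that fit 28.3% of all genes were called positive and 21.9% negative. The count was 16 without Gcn2 Yaa replicate 2 alone and 1, COX6B, without Gcn2 -R replicate 1 alone. For -M, 0 of the 59 passed against 6.95% of all genes, with 1 at an unadjusted p under 0.05 and a median of 0.02. Without Gcn2 Yaa replicate 2, ND-49 and COX7A passed, both negative, as they did without all ovary-marked libraries. In the latter fit 4.37% of all genes were called negative and 5.08% positive, so these 2 of 59 were near the share of all genes.

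For -All, all 59 interactions were positive, with a median of 0.18, but 0 passed, against 0.882% of all genes, and 12 had an unadjusted p under 0.05. No alternative fit gave a call, and without the ovary-marked libraries the median was 0.14. Since all interactions share the Yaa libraries of both genotypes, the lower Gcn2 Yaa values enter each of them. COX6B, a subunit that caps complex IV on the side facing cytochrome c, gives an example for -R. It went from 18755, 18844 and 18765 to 21192, 21830 and 21154 in wDah and from 16866, 15175 and 18892 to 15139, 16007 and 14866 in Gcn2. The control libraries did not overlap between diets and the mutant libraries did, with an interaction of -0.33 (SE 0.11, adjusted p = 0.0535).

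Some OXPHOS genes are named by other symbols. Of 9 such subunit and cytochrome c genes, 6 rose in wDah on -R, 4 on -M, and 8 on -All, with 0 lower, against 13.8, 15.1 and 19.6% of all genes. With equal library totals 2, 2 and 3 rose and, on -All, 2 fell; without the ovary-marked libraries 2 rose on -M and 7 on -All. The largest rises on -All were those of blw, the alpha subunit of complex V (0.63), Cyt-c-p, the main cytochrome c (0.56), and Cyt-c1 of complex III (0.42). In the mutants 5 of 9 rose on -All, 3 on -M and 0 on -R (3, 2 and 0 with equal totals and 6, 3 and 0 without the ovary-marked libraries). On -All blw rose by 0.76 and Cyt-c-p by 0.78. Between genotypes on -R all 9 were lower in the mutants, against 18.1% of all genes, as they were without the ovary-marked library, and 7 were with equal totals. Of the 4 complex II genes measured, 2 rose in wDah on -R, 0 on -M and 3 on -All, with SdhA, the flavoprotein, at 0.33 on -All. With equal totals 0 of the 4 rose in wDah on any diet, 1 fell on -R and 3 on -All, against 35.9 and 53.6% of all genes. Without the ovary-marked libraries 0 of the 4 rose on -M and 2 on -All. All 4 were lower in the mutants on -R on either scale and without the ovary-marked library, with SdhA at -0.58 over all libraries. The -R interaction passed for SdhA (-0.37) and SdhB (-0.49), against 21.5% of all genes, and without the ovary-marked libraries for all 4, each negative.

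Other subunits are encoded by the mitochondrial genome. Of 12 transcripts of the mitochondrial genome tested, 2 rose on each diet in wDah and 0 fell. Among all genes 13.8, 15.1 and 19.6% were called higher on -R, -M and -All, so these rises were near the share of all genes. With equal totals 0 rose and 1 fell on -R, 1 rose on -M, and 1 rose and 4 fell on -All, where 35.9% of all genes fell on -R and 53.6% on -All. Without the ovary-marked libraries 0 rose on -M and 2 on -All. In the mutants on -R 5 fell, against 4.54% of all genes, with a median log2 change of -0.47. With equal totals 8 fell, against 9.28% of all genes, and without the ovary-marked libraries 7, against 24.1%. Between genotypes on -R 9 of 12 were lower in the mutants, against 18.1% of all genes (8 and 9 under these alternatives, against 13.6 and 28.7%). The -R interaction passed for 9, against 21.5% of all genes, mt:CoI at -0.51 and mt:Cyt-b at -0.71 among them. It passed for 9 and 11 under the alternatives, where 4.65 and 21.9% of all genes were called negative. Every -R interaction called in these transcripts was negative, in the main fit and under both alternatives. These transcripts were read from poly(A)-selected RNA.

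Genes that serve the complexes were also counted. Of 7 assembly factors, 0 were called in wDah on -R, 1 rose on -M (Ccdc56, 0.30) and 1 on -All (CIA30, 0.25). With equal totals 4 fell on -R and 6 on -All, against 35.9 and 53.6% of all genes, and Ccdc56 alone rose on -M. The rises of Ccdc56 on -M and CIA30 on -All held without the ovary-marked libraries. Against wDah on -R, 3 were higher in the mutants, Scox (0.52), Coa7 (0.50) and Ccdc56 (0.33), and Coa8 was lower (-0.25), against 27.4 and 18.1% of all genes. The first 3 passed on both alternatives and Coa8 only without the ovary-marked library. Of 7 carriers of the inner membrane and the outer membrane channel, 3 rose in wDah on -R, 3 on -All and 2 on -M, with porin, the channel, at 0.21 on -R, 0.34 on -All and 0.31 on -M. Among all genes 13.8, 19.6 and 15.1% were called higher on these diets in that order. With equal totals 1 of the 7 rose and 2 fell on -R, 0 rose and 3 fell on -All and 1, porin, rose on -M, and without the ovary-marked libraries 3 rose on -All and 2 on -M. Mpcp1, a phosphate carrier that feeds ATP synthesis, was lower in the mutants on -R (-0.67), as was the ADP/ATP carrier sesB (-0.43), and both passed under each alternative.

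Of 12 regulators of mitochondrial biogenesis and dynamics, 0 rose and 2 fell in wDah on -R, 3 rose and 1 fell on -M, and 0 rose and 3 fell on -All. Among all genes 13.8, 15.1 and 19.6% rose and 8.91, 10.4 and 15.7% fell. On -R 4 of the 12 were higher in the mutants than in wDah and 2 lower, near the 27.4 and 18.1% of all genes. Only some of the called regulators are given by name here. The gene srl, the fly PGC-1 homologue, fell by 0.41 on the log2 scale in wDah on -R and rose by 0.26 on -M. On -R it was higher in the mutants by 1.71. ewg, the homologue of nuclear respiratory factor, fell in wDah on -M (-0.19) and -All (-0.24) and in the mutants on -R (-0.55) and -All (-0.33). ERR, the estrogen-related receptor, was lower in the mutants on -R (-0.40) and higher on -M (0.26). TFAM, which packages mitochondrial DNA, rose in wDah on -M (0.24) and was lower in the mutants on that diet (-0.28). Ccdc56 and mtTFB1, a mitochondrial transcription factor, share 1 locus in the annotation and held the same fitted values, so their reads cannot be told apart. Without the ovary-marked libraries the changes of srl (0.19, wDah on -M), ERR (0.21, between genotypes on -M) and TFAM (-0.24, between genotypes on -M) did not pass. With equal totals those of srl and ERR on -M did not pass either, at 0.17 and 0.23.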

How the data were processed

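The authors sequenced poly(A)-selected RNA as 100 bp single-end reads, estimated counts with kallisto 0.46.2 on BDGP6.32 and divided them by size factors of DESeq2 1.24.0 in R 3.6.3. The deposited values used here are these normalized counts (unit: signal) and the authors' FPKM, which in each gene is a fixed multiple of the normalized count. The deposited columns of fold changes and p-values hold the authors' own comparisons and were not used. Normalized counts did not resolve into whole reads (85.9 to 88.4% of low values), so no count model was run.

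log2(normalized count + 1) was tested with limma 3.58.1 (R 4.3.3, lmFit and eBayes with trend, two-sided) over 10994 genes with a mean of at least 10, with Benjamini-Hochberg adjustment and a threshold of 0.05. Each diet or genotype comparison used its own 6 libraries and each interaction 12, for 13 comparisons. Fold changes are on the log2(value + 1) scale, and the script was tested on simulated data. The members and lists were chosen with earlier results of these data known. Replicates are 3 biological replicates per group; no libraries of a group held identical values.

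Genes were named by rule: the 7 complex I core genes, 13 listed subunits of complexes III to V, the largest called rise and fall of each comparison, paralogs (symbol plus L), and the genes beside the minimum; genes named outside it, such as ND-B8, ND-SGDH, ND-15 and ND-B12, were chosen after their values were seen. Library replicate numbers were checked for pairing: same-numbered deviations correlated above 0.1 in every pair only for Gcn2 on -M against Yaa (r = 0.27, 0.485 and 0.229), where numbers were taken to pair the samples. The labels do not state a pairing, and the main fit of this comparison did not use it. The highest r was for replicate 2, which had the highest ovary marker sum in both groups (6344 normalized counts in Gcn2 Yaa and 1265 in Gcn2 -M). Alternatives were other pseudocounts, filters and scaling, a single fit of all libraries, array weights, a replicate block, the separate table of each diet comparison, omission of ovary-marked libraries and leaving out each library; equal totals and omission of ovary-marked libraries were added for the other gene lists after seeing the data. Libraries were called ovary-marked when the median of the ovary markers lay over 2 (log2) above the mean of the other libraries of the group. The medians came from the separate tables of the diet comparisons, and the highest difference over the tables was used. Gene positions came from the Ensembl annotation BDGP6.54, a later release than the authors'; no gene sequences were used here. Figures were drawn with matplotlib 3.10.9.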

Additional observations from a re-analysis of the deposited data

How the results depend on the processing

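The counts of genes called among the 59 moved with library scaling, with the fit and with single libraries. With equal library totals they were 8, 18 and 23 for the wDah diets -R, -M and -All, 2, 4 and 15 for Gcn2 on these diets, and 2, 25 and 33 for Gcn2 against wDah on Yaa, -R and -M. Among all genes the wDah fits called 8, 9.25 and 8.61% higher and 35.9, 20.9 and 53.6% lower, in that order. The Gcn2 fits called 13.9, 5.93 and 6.6% higher and 9.28, 9.98 and 38.8% lower, and those between genotypes 1.7, 31.2 and 9.45% higher and 1.55, 13.6 and 13.5% lower. That rescaling also reversed 13 called log2 changes: on wDah -R ATPsynB (-0.014), ND-20 (-0.043), UQCR-14 (-0.017), ND-24 (-0.046) and COX5B (-0.0056), and on wDah -All ATPsynCF6 (-0.054), ND-23 (-0.16), UQCR-14 (-0.096), ND-24 (-0.16), COX6B (-0.024), COX5B (-0.00451), COX4 (-0.00102) and ND-30 (-0.11). A single fit of 24 libraries gave 0, 17 and 30 for the wDah diets -R, -M and -All, 7 and 26 for Gcn2 on -R and -M, 12 for Gcn2 against wDah on Yaa and 2 (COX6B and ND-20) for the -R interaction. Array weights gave 13 and 23 for Gcn2 on -R and -M, 18 on Yaa between genotypes and 25 and 2 for the -R and -M interactions. Without ovary-marked libraries the counts were 13 for Gcn2 on -R, 12 and 5 between genotypes on Yaa and -M, and 27 and 2 for the -R and -M interactions. Among all genes these fits called 24.1% lower and 32.3% higher for Gcn2 on -R. For the -R interaction they called 21.9% negative and 28.3% positive, and for the -M interaction 4.37 and 5.08%. Between genotypes they called 5.58% lower and 6.09% higher on Yaa, and 8.41 and 10% on -M. A minimum mean of 50 gave 1 (COX6B) for the -R interaction.

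With the replicate block the counts were 19 for Gcn2 on -All and 0, 27 and 8 between genotypes on Yaa, -R and -M, where numbers were not taken to pair the samples. For Gcn2 on -M, where they were taken to from the correlations alone, the block gave 14, against 11 without it. No other call count changed by over 1.5 times with the block. Leaving out each library in turn gave ranges of 15 to 28, 16 to 51 and 35 to 48 for wDah on -R, -M and -All, 0 to 2, 0 to 16 and 12 to 38 for Gcn2, 0 to 12, 20 to 51, 3 to 14 and 0 to 0 between genotypes on the 4 diets in the order Yaa, -R, -M and -All, then 0 to 16, 0 to 2 and 0 to 0 for the -R, -M and -All interactions. Of the called changes of named genes, 1015 refits kept their call, 232 lost it and 13 reversed. The causes of these shifts were not tested. Mean normalized counts were at least 2080 in 58 of the 59 genes, while the values of COX5BL rest on a mean of 28.1.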
